A study of Mus musculus with 3 samples.

Results

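The genes described here encode 10 receptors through which macrophages bind and take up modified lipoproteins, glycoproteins, microbes and cell debris: the class A scavenger receptors Msr1 and Marco, the class H receptor Stab1, the class B receptors Cd36, Scarb1 and Scarb2, the macrosialin Cd68, the haemoglobin scavenger Cd163, the mannose receptor Mrc1 and the lectin-like oxidised LDL receptor Olr1. They were chosen by gene symbol, are 10 of the 55536 annotated genes in the deposited tables, and all belong to the 22028 protein-coding ones. Total RNA depleted of ribosomal RNA was sequenced from the chromatin fraction of primary macrophages grown from the bone marrow of C57BL/6J mice, whose age and sex were not recorded in the labels. All 3 libraries came from a single condition: Lipid A at 100 ng/ml for 12 h, a washout of 12 h, and Lipid A again at 100 ng/ml for 40 min. Replicates 1, 2 and 3 were made from 1 µg, 250 ng and 500 ng of RNA, so that input and replicate cannot be told apart. No unstimulated or once-stimulated library was analysed here, and levels are therefore described without a contrast.

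Scavenger receptors are grouped by structure rather than by ancestry, and share an ability to bind polyanionic or oxidised ligands. In macrophages they carry cargo into endosomes and lysosomes, and several also take part in the response to bacterial products. The mannose receptor binds sugars through C-type lectin domains and recycles between the surface and endosomes. RNA that stays with chromatin holds many transcripts that are still being made or spliced, so a level in this fraction is a level of chromatin-associated RNA and not of cytoplasmic mRNA or protein.

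Annotated genes held 13802716, 17187524 and 16502809 expected counts in replicates 1, 2 and 3. The labelled cell type matched its markers, with 10 of 10 macrophage genes detected at a summed 1115, 1242 and 1168 TPM (a level per transcript length, scaled to a fixed total). Genes averaging 10 counts or more over the libraries were called detected. In the gene tables no neutrophil, T cell, B cell or adipocyte marker passed that limit, whereas in a second deposited table, made directly from the reads, 2 of 10, 2 of 6, 2 of 6 and 1 of 5 did, among them Cd3d at 15.6 TPM, which had 0 counts in the gene tables. Of the endothelial markers in the gene tables, relevant because sinusoidal endothelium also makes Stab1, 3 of 10 did (Stab2, Kdr and Pecam1), at a summed 20.4, 25.1 and 14.5 TPM, while Cdh5 stood at 0.15 TPM or less and Emcn and Robo4 at 0. Of the other lists, 2 of 8 dendritic, 3 of 7 fibroblast, 1 of 6 erythroid and 2 of 6 megakaryocyte markers were detected in the gene tables, and 6, 5, 1 and 4 of them in the table made from the reads, with 4 of 10 endothelial and 10 of 10 macrophage markers. The part of such cells in the levels below was not tested. In a bulk library, fewer cells of a type and less RNA per cell cannot be told apart.

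The isoforms that carry the results differ by short stretches, shown here 5′ to 3′ at the points where they part, as taken from the GENCODE M21 transcripts on mm10. The capitals in Msr1-201 mark the start of the exon that leads on to its cysteine-rich (SRCR) domain (chr8:39589449-39589478), and those in Msr1-202 the last coding bases of the type II form, which end in its stop codon (chr8:39605972-39605982). The capitals in Msr1-204 mark the first bases of a kept intron (chr8:39632690-39632719).
Msr1-201: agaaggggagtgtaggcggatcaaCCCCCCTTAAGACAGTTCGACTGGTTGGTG
Msr1-202: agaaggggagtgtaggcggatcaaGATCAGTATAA
Msr1-204: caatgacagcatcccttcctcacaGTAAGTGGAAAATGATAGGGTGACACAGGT
In Scarb1 the capitals mark the start of exon 12 in Scarb1-201 (chr5:125281204-125281233) and, in Scarb1-202, which skips that exon, the start of the last exon (chr5:125277836-125277865).
Scarb1-201: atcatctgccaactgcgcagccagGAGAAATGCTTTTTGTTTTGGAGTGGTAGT
Scarb1-202: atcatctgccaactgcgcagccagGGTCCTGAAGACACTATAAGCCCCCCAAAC
In Cd68 the capitals mark 27 bases that only Cd68-202 holds of this pair (chr11:69665476-69665502).
Cd68-201: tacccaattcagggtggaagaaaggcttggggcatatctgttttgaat
Cd68-202: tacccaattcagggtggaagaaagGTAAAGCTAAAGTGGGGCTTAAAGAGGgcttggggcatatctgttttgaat
In Stab1-208, a transcript with kept introns, the capitals mark the first bases of intron sequence (chr14:31143485-31143514).
Stab1-208: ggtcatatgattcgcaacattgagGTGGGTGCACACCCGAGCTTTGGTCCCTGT
All of these genes lie on the minus strand, and the sequences are given as the transcripts read.

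Of the 10 receptors, 9 were detected, against 49.7% of all protein-coding genes, and 4 stood in the top decile of mean TPM, which by construction holds 10% of those genes. In the table made from the reads, 10 of 10 passed the limit, against 66.9%. Marco stood at percentile 89.3 in the gene tables and 94.3 in that table, so its place in the top decile depended on the table. The median receptor stood at percentile 87.6 of the protein-coding genes, and at 88.6, 87.7 and 86.2 within replicates 1, 2 and 3. The 10 genes summed to 729, 1129 and 877 TPM. Stab1 and Msr1 together held 78.5%, 84.6% and 81.1% of those sums.

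**Figure D1:**
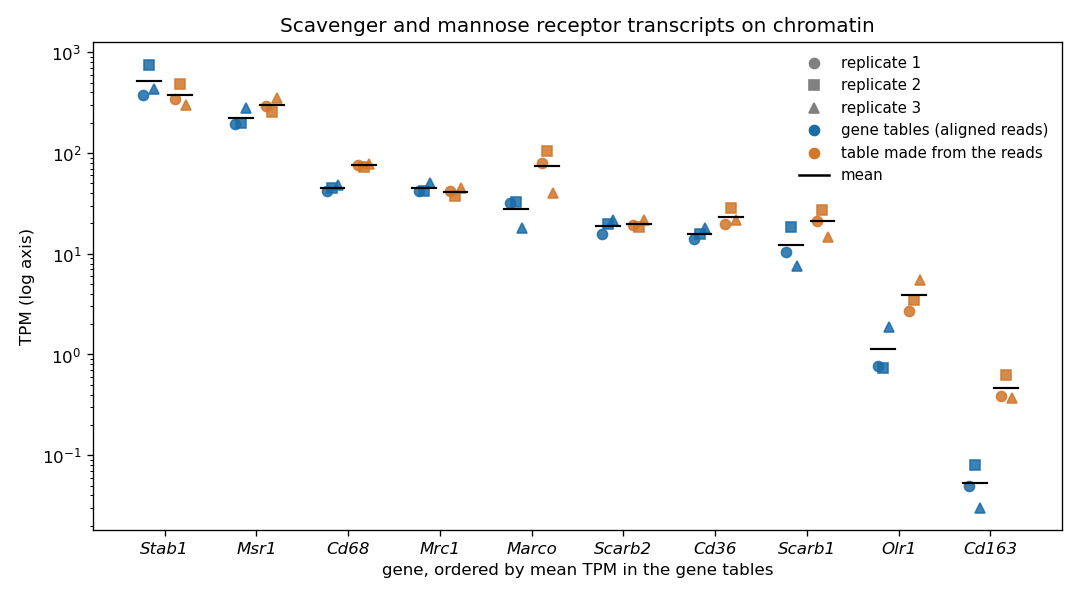
TPM (log axis) of each receptor gene in the 3 libraries, with aligned-read gene tables in blue and the table made from the reads in orange. Black bars are means. Stab1 and Msr1 lie highest in both tables and Olr1 and Cd163 lowest, with 0.05, 0.08 and 0.03 TPM for Cd163 in the gene tables.

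Stab1 (ENSMUSG00000042286.13, chr14:31139013-31168641) encodes stabilin-1, a large receptor for acetylated LDL and the matrix protein SPARC. It measured 379, 755 and 434 TPM in replicates 1, 2 and 3 (mean 523 ± 203, SD, n = 3) from 19169, 29422 and 18438 counts, and ranked 46 of 22028. Replicate 2 was high on this scale. Msr1 (ENSMUSG00000025044.16, chr8:39581685-39642673), the class A receptor SR-A, measured 193, 199 and 277 TPM (mean 223 ± 47.0, SD, n = 3) and ranked 202. Stab1 exceeded Msr1 in all 3 libraries of the gene tables, by 1.97, 3.79 and 1.57 times. In the table made from the reads the order held in 2 of 3 libraries, with Stab1 at 346, 483 and 301 TPM and Msr1 at 291, 258 and 350.0 TPM, and the ranges overlapped.

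Marco (ENSMUSG00000026390.7, chr1:120474538-120505024), a class A receptor that binds unopsonised bacteria and particles, measured 31.7, 33.0 and 18.1 TPM (mean 27.6 ± 8.27, SD, n = 3). Replicate 3 was the low library, with 403 counts against 742 and 774 in replicates 1 and 2. Replicate 3 was also the lowest in the table made from the reads, which gave Marco more, at 79.1, 105 and 40.5 TPM. Its counts there were 3.46 times those of the gene tables, where the median of detected protein-coding genes was 1.68 times.

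The class B receptors lay close together. Scarb2 (ENSMUSG00000029426.8, chr5:92441314-92506833), also LIMP-2, a lysosomal membrane protein that carries beta-glucocerebrosidase to lysosomes, measured 15.9, 19.6 and 21.4 TPM (mean 19.0 ± 2.84, SD, n = 3). Cd36 (ENSMUSG00000002944.15, chr5:17781690-17888801), which binds oxidised LDL and long-chain fatty acids, measured 13.98, 15.6 and 17.95 TPM (mean 15.8 ± 2.00, SD, n = 3). Scarb1 (ENSMUSG00000037936.15, chr5:125277087-125341094), the HDL receptor SR-BI, measured 10.4, 18.4 and 7.56 TPM (mean 12.1 ± 5.62, SD, n = 3), with replicate 2 the highest. The ranges of Marco and Scarb2, of Scarb2 and Cd36, and of Cd36 and Scarb1 overlapped in the gene tables. Within libraries the first of each pair was the higher in 2, 3 and 2 of 3 libraries. In the table made from the reads it was the higher in 3, 1 and 2 of 3. No pair thus kept its order in every library of both tables. In the table made from the reads Cd36 averaged 23.3, Scarb1 21.1 and Scarb2 19.9 TPM.

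Cd68 (ENSMUSG00000018774.13, chr11:69664213-69666153), a glycoprotein of late endosomes and a common macrophage marker, measured 42.1, 44.8 and 48.2 TPM (mean 45.0 ± 3.09, SD, n = 3). Mrc1 (ENSMUSG00000026712.3, chr2:14229392-14332057), the mannose receptor CD206, measured 41.7, 42.2 and 51.0 TPM (mean 45.0 ± 5.22, SD, n = 3). The ranges of Cd68 and Mrc1 overlapped in the gene tables. They did not overlap in the table made from the reads, where Cd68 was higher in 3 of 3 libraries, with means of 76.2 TPM for Cd68 and 41.4 TPM for Mrc1.

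Olr1 and Cd163 were the low members. Olr1 (ENSMUSG00000030162.14, chr6:129485244-129507165), encoding LOX-1, measured 0.77, 0.74 and 1.87 TPM from 25, 11 and 21 counts. Cd163 (ENSMUSG00000008845.9, chr6:124304656-124330527), the receptor for haemoglobin bound to haptoglobin, had 3, 5 and 1 counts, with exact 95% Poisson intervals of 0.62 to 8.77, 1.62 to 11.7 and 0.025 to 5.57 counts that cover counting error only. Its counts reached the 3 that a count of 0 allows in replicates 1 and 2 and stayed below it in replicate 3. The table made from the reads held far more for both: 161, 245 and 279 counts for Olr1 and 28.6, 65.9 and 34.4 for Cd163. These are 12.0 and 14.3 times the counts of the gene tables, at percentiles 98.5 and 98.9 of that ratio among protein-coding genes detected in the gene tables. Cd163, averaging 3 counts there, is not in that set, which leaves out genes with as few counts. Whether Cd163 is called detected thus depended on the table. The cause was not tested.

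The spread between libraries was measured on log2 CPM (counts scaled by library total) with TMM (trimmed mean of M values) factors, a scale on which Stab1 was 1.34 times as high in replicate 2 as in replicate 3. The libraries do not fall in the same order on the 2 scales: Cd68 was highest in replicate 3 by TPM and in replicate 1 by log2 CPM. By a chi-square test against counting noise, with Benjamini-Hochberg adjustment over 14320 genes, 9 of 9 tested receptors varied beyond that noise, against 54.9% of all genes tested, 57.7% of protein-coding ones and 76.5% of the protein-coding ones with at least 200 counts, as 8 of these receptors had. Among these 9 receptors the widest spreads in the gene tables were those of Olr1, Marco and Scarb1. Olr1 had an SD of 0.82 on the log2 scale (percentile 96.6 of tested protein-coding genes, adjusted p = 0.0119), at 19 counts in the mean. Marco had an SD of 0.54 (percentile 87.8, adjusted p = 4.21e-31) and was 2.08 times as high in replicate 1 as in replicate 3. Scarb1 had an SD of 0.52 (percentile 86.4, adjusted p = 2.71e-18) and was 2.04 times as high in replicate 2 as in replicate 3. In the table made from the reads the SDs were 0.22 for Olr1, 0.61 for Marco and 0.26 for Scarb1, and those of Cd36, Stab1 and Msr1 were 0.31, 0.28 and 0.27, so that of these 3 only Marco stayed above 0.5 in both tables. The SD was 0.30 for Olr1 without replicate 2, and 0.26 for Marco and 0.34 for Scarb1 without replicate 3. With 3 libraries, leaving out the most distant always lowers the SD, so these falls are not read as a trait of the genes. In the gene tables Msr1 followed with 0.32 and a highest-to-lowest ratio of 1.54 between replicates 3 and 2. Stab1, Mrc1, Cd68, Scarb2 and Cd36 had SDs of 0.18 to 0.23, at or under the median of 0.24 over 10952 protein-coding genes. That median and the percentiles above pool genes of all levels, and genes with few counts spread more widely. Among binned genes at the mean log2 CPM of Mrc1 the most common SD was near 0.12. It was near 0.09 at the levels of Cd68 and Scarb2. These receptors lay above it, but SDs at each level have a long upper tail. Lying above the most common SD thus does not mark a spread as wide for its level. Cd36 lay close to the most common SD at its level, and few genes lay near Stab1. Without replicate 2 the SD fell by over 1.5 times for Msr1 (0.17), Scarb2 (0.11), Cd68 (0.09) and Mrc1 (0.002). It did so for Stab1 (0.13) without replicate 3 and for Cd36 (0.029) without replicate 1. For the reason given above, these falls are not read either. Cd36, with a ratio of 1.26, had an adjusted p of 0.011. Without replicate 1 the calls of Cd36 and Olr1 were lost, and without replicate 2 those of Cd68, Mrc1 and Olr1.

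**Figure D2:**
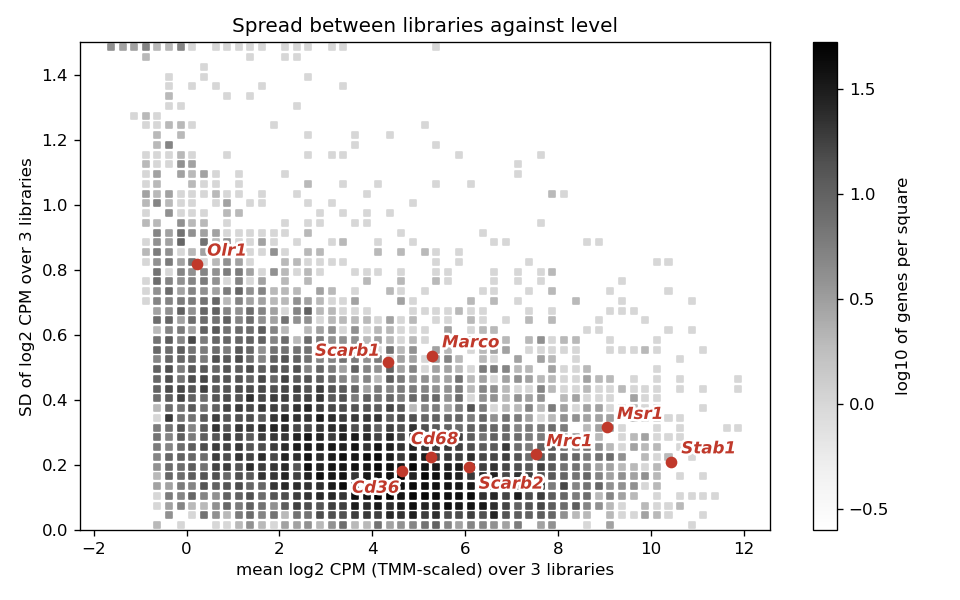
SD over the 3 libraries against the mean of TMM-scaled log2 CPM. Grey squares bin 10952 protein-coding genes, darker for more genes, with the 36 genes above 1.5 drawn at the top edge; red points are the 9 tested receptors. Olr1, Marco and Scarb1 lie above 0.5, and Cd36, Scarb2, Stab1, Cd68 and Mrc1 at 0.18 to 0.23.

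The annotation lists 52 transcripts for the 10 genes, of which 29 are protein-coding, 17 are retained-intron transcripts and 6 are other non-coding ones. Their levels are estimates that divide shared reads, and the leading transcript was the same in both tables for 7 of 10 genes. The exceptions were Scarb1, Olr1 and Cd163. The share of a gene's TPM in retained-intron transcripts ran from 13.4% in Mrc1 to 74.6% in Scarb1 among the detected receptors that have such a transcript. Over the 6715 detected protein-coding genes with one, the median was 41.8% in the gene tables' alignment and 42.8% in the table made from the reads. These shares cover annotated transcripts only, and so depend on which introns the annotation of each gene includes.

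**Figure D3:**
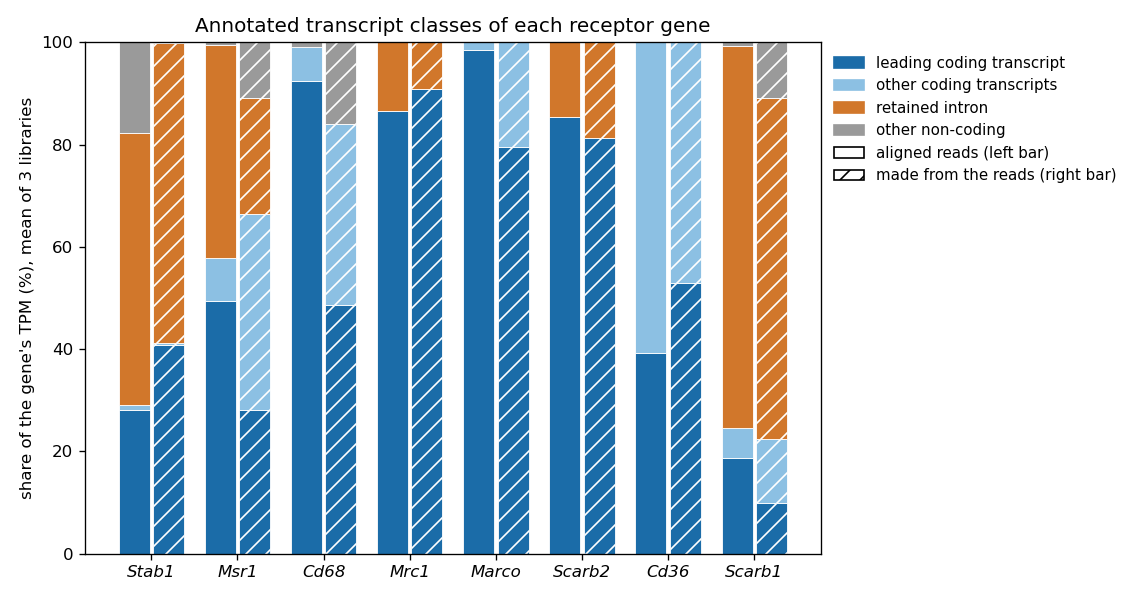
Share of each gene's TPM (%, mean of 3 libraries) in its leading coding transcript, other coding transcripts, retained-intron transcripts and other non-coding transcripts, with the aligned reads as plain bars and the table made from the reads as hatched bars. Stab1 (53.2% and 58.8%) and Scarb1 (74.6% and 66.6%) hold most of their TPM in retained-intron transcripts in both tables, while Mrc1 holds 13.4% and 9.03%. By counts, which are not divided by length, most of Stab1 fell on its coding transcript Stab1-201. Olr1 and Cd163 are left out for low counts.

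Stab1 held 53.2% ± 0.841 of its TPM in 9 retained-intron transcripts (SD, n = 3), at percentile 68.5 of genes with such transcripts, and 58.8% ± 1.78 in the table made from the reads. Its full-length coding transcript Stab1-201, of 69 exons and 2571 amino acids, held 28.1% ± 4.79 and 40.7% ± 1.85 in these tables. TPM divides by length, and the retained-intron transcripts have at most 3453 bases against 7999 for Stab1-201. By counts, Stab1-201 held 13532, 19457 and 12710 of the gene's 19169, 29422 and 18438. In the table made from the reads it held 19868, 36411 and 21595 of 26839, 50152 and 29130. Most counts of the gene thus fell on Stab1-201 in every library of both tables. Between them the retained-intron transcripts held 11 of its 68 introns whole. Stab1-208 alone held 9, all between introns 51 and 66, at 39.9, 69.8 and 38.0 TPM. Stab1-206 kept intron 20, at 39.7, 77.2 and 44.5 TPM. Stab1-205, which holds part of intron 18, was at 16.0, 33.4 and 15.7 TPM, and was the highest retained-intron transcript of the gene in the table made from the reads, at 56.1, 70.1 and 45.6 TPM (15.3% of the gene).

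The 242-base Stab1-202, a processed transcript at the 3′ end of the gene, was estimated at 50.9, 165 and 78.3 TPM from only 42.6, 80.0 and 38.9 counts. The table made from the reads gave it 0, 0.90 and 0 TPM. Without it Stab1 measured 329, 590.5 and 356 TPM (mean 425 ± 144, SD, n = 3), still above Msr1 in every library. Of its bases, 108 lie inside Nt5dc2, a gene on the opposite strand that measured 4.49, 5.47 and 3.89 TPM. The sources used here do not say whether counting used strand, so reads of the pair may not be separable there.

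**Figure D4:**
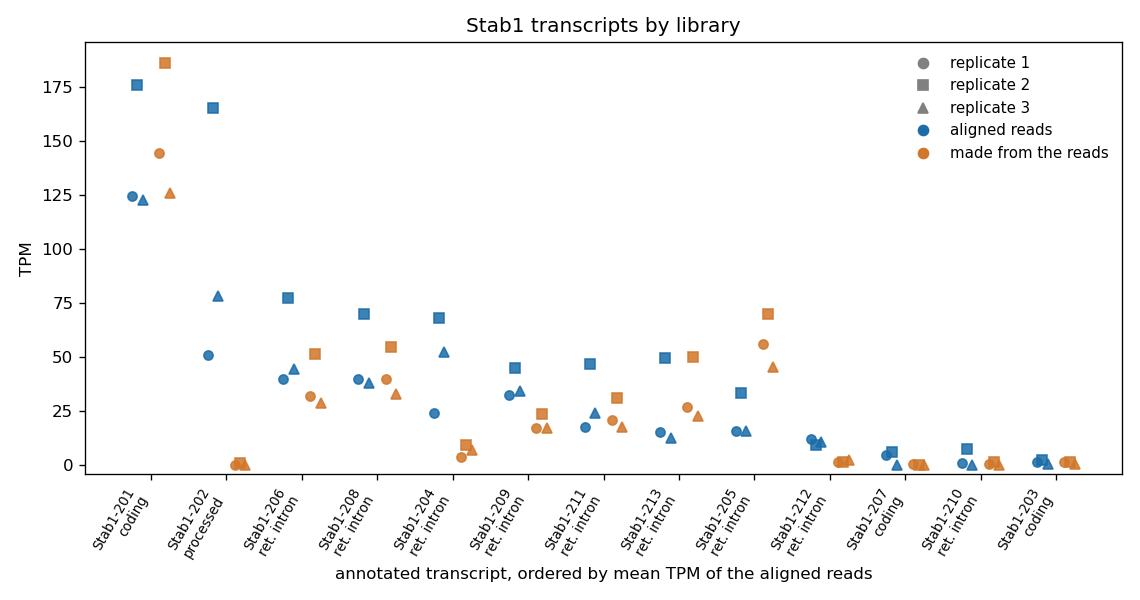
TPM of each annotated Stab1 transcript in the 3 libraries, with aligned reads in blue and the table made from the reads in orange. Stab1-202 reaches 165 TPM in replicate 2 of the aligned reads and at most 0.90 TPM in the other table, while Stab1-201 lies between 123 and 186 TPM in both.

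Msr1 makes a type I receptor with an SRCR domain and a shorter type II receptor without it. The type II transcript Msr1-202 (354 amino acids) measured 99.5, 96.5 and 133 TPM, and the type I transcript Msr1-201 (458 amino acids) 18.8, 13.8 and 23.4 TPM. Their ratio was 5.29, 7.01 and 5.69 in replicates 1, 2 and 3, and 1.93, 1.68 and 1.87 in the table made from the reads. Type II was thus the higher of the pair in 3 of 3 libraries of both tables, while the size of the ratio depended on the table. The last exon of Msr1-202, of 2529 bases (chr8:39603454-39605982), lies wholly inside intron 8 of Msr1-201 (chr8:39589479-39608084), a stretch that unspliced type I RNA also contains.

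The retained-intron transcript Msr1-204, whose intron 2 boundary is shown above, measured 74.3, 87.3 and 119 TPM, or 41.8% ± 2.79 of the gene (SD, n = 3). In the table made from the reads it measured 63.3, 58.3 and 82.4 TPM, or 22.6% ± 0.891. Its ratio to Msr1-202 was nearly equal in the tables, averaging 0.85 and 0.81. Msr1-203, a coding transcript of 691 bases, had 0, 0.32 and 0 TPM in the aligned reads and 96.7, 44.6 and 62.4 TPM in the other table. Msr1-205, a processed transcript, had 0, 1.15 and 1.85 TPM and, in the other table, 0, 43.1 and 56.6 TPM. The level of both transcripts thus depended on the table.

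**Figure D5:**
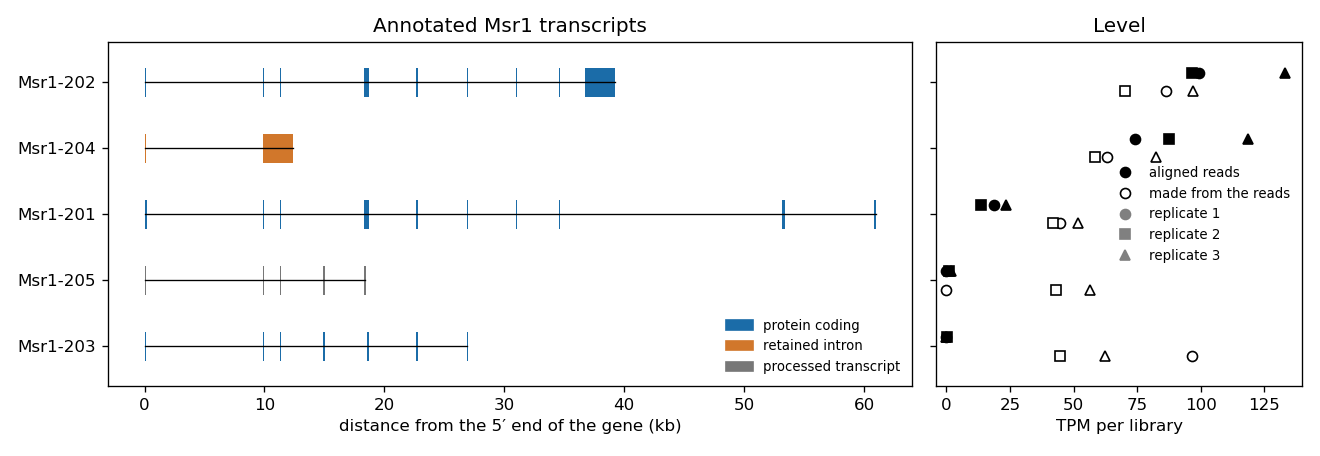
Left, exons (boxes) of the 5 annotated Msr1 transcripts by distance from the gene's 5′ end in kb, coloured by class; the thinnest exons are widened to stay visible. Right, TPM per library, filled for the aligned reads and open for the table made from the reads. Msr1-202 lies above Msr1-201 in every library, and Msr1-203 and Msr1-205 reach 43 TPM or more only in open symbols.

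Scarb1 had the highest retained-intron share, 74.6% ± 2.74 in the gene tables' alignment (SD, n = 3, percentile 91.5) and 66.6% in the table made from the reads (percentile 79.4). The transcripts of that class hold parts of introns only, and 0 of the 12 introns of Scarb1-201 whole. The leading transcript was Scarb1-209 at 4.38, 4.03 and 3.73 TPM, followed by Scarb1-207 at 1.97, 5.0 and 1.60 TPM, both of which hold parts of intron 11. In the table made from the reads Scarb1-207 led with 8.98, 8.68 and 7.60 TPM. Scarb1-201, which encodes SR-BI (509 amino acids), measured 1.82, 3.40 and 1.5 TPM. Scarb1-202 encodes the SR-BII form (506 amino acids), whose C terminus differs because exon 12, of 129 bases (chr5:125281105-125281233), is skipped. The ratio of Scarb1-201 to Scarb1-202 was 2.83 and 2.89 in replicates 2 and 3, with Scarb1-202 at 0 in replicate 1, and 1.19, 2.26 and 2.92 in the table made from the reads. Scarb1-202 rested on 0, 35.98 and 14.6 counts with deposited posterior SDs of 10.7, 22.6 and 12.3, so these ratios are loosely determined. Scarb1-211, which lies in intron 1, held 5.97% of the gene in the aligned reads and 12.9% in the other table. The small gene Gm42633 lies within Scarb1 on the same strand and measured 0.34, 1.15 and 0.06 TPM.

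Cd68-201 (326 amino acids) held 92.5% ± 3.51 of the gene's TPM (SD, n = 3), at 40.4, 39.8 and 44.7 TPM, and Cd68-202 (335 amino acids), with the 27 extra bases shown above, stood at 1.73, 3.89 and 3.52 TPM, from 19.5, 41.4 and 35.5 counts with posterior SDs of 6.71, 11.0 and 7.48. Their ratio was 23.3, 10.2 and 12.7 in the aligned reads and 1.37, 1.28 and 1.49 in the table made from the reads, where Cd68-201 held 48.7% and the processed transcript Cd68-203 15.9%. The Cd68-201 level itself was close in that table, at 38.7, 34.1 and 38.5 TPM.

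Of the annotated transcripts of Mrc1, the coding one held most of the TPM. Mrc1-201, of 1456 amino acids, held 86.6% ± 1.66 and Mrc1-202, which keeps intron 29, held 13.4% ± 1.66 (SD, n = 3), with 91.0% and 9.03% in the table made from the reads. This retained-intron share stood at percentile 11.1. The annotated transcripts include only 1 of the 29 introns of Mrc1-201, so the share says nothing about the others. The microRNA gene Mir511, an entry of 79 bases within Mrc1, had 0 counts in every library. Whether these libraries can count so short an entry was not tested, so the 0 is not read as absence.

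Scarb2-201 held 85.5% ± 6.80 of its gene, and the retained-intron transcript Scarb2-202, which overlaps the start of Scarb2-201 and extends upstream of it, with 391 of its 2033 bases in intron 1, held 14.5% (81.4% and 18.6% in the table made from the reads). Marco-201 (518 amino acids) held 98.6% ± 1.42 in the aligned reads and 79.6% ± 10.1 in the other table (SD, n = 3), with the 370-base Marco-202 as the rest. Cd36 has no annotated retained-intron transcript. Its leading entry, Cd36-205, is a short coding transcript of 702 bases that held 39.2% ± 16.6, at 7.66, 3.39 and 7.36 TPM. Cd36-201, Cd36-206 and Cd36-204, each of which encodes 472 amino acids, held 24.8%, 17.6% and 12.0%. Cd36-205 rested on 53.5, 21.2 and 44.1 counts. Cd36-201 rested on 117, 187 and 149, with posterior SDs of 24.6, 37.8 and 31.9. Without Cd36-205 the gene measured 6.33, 12.2 and 10.6 TPM. In the table made from the reads Cd36-205 held 53.0%, Cd36-206 23.6%, Cd36-201 8.30% and Cd36-204 7.76%. The order of Cd36-201 and Cd36-206 thus depended on the table.

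Isoform shares of the low members rested on few counts. Olr1-201, the coding transcript of 363 amino acids, had 24.2, 9.92 and 18.8 counts, Olr1-202 had 0, 0.50 and 2.17, and Olr1-205 had 0.78, 0 and 0. Olr1-202 still held 41.1% of the gene's TPM in the mean, with Olr1-201 at 39.2% and Olr1-205 at 11.1%, at a length of 350 bases against 3572 for Olr1-201. For Cd163, the counts fell on Cd163-202 in replicates 1 and 2 and on Cd163-203 in replicate 3, and in the table made from the reads on Cd163-201.

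Companion genes place the receptors among their relatives and partners. Each list is described by its counts in the gene tables, beside the 49.7% of protein-coding genes detected and the median percentile of 50. In the table made from the reads 66.9% of protein-coding genes passed the limit. The lists there had, in the order below, 15, 6, 2, 14, 19 and 13 genes detected. Of 18 other scavenger receptors 11 were detected, with a median percentile of 56.8. Lrp1, which clears lipoproteins and protease complexes, averaged 262 ± 48.0 TPM, the endotoxin co-receptor Cd14 121 ± 35.3 and the membrane-bound chemokine Cxcl16 92.3 ± 14.6 (SD, n = 3). Stab2, the relative of Stab1 that takes up hyaluronan, averaged 13.6 ± 5.49 TPM. Scara3, Scara5 and Megf10 were not detected in the gene tables, with at most 1 count in a library, although Scara5 averaged 2.48 TPM in the table made from the reads.

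Of 10 mannose receptor relatives and other endocytic lectins 5 were detected, with a median percentile of 52.2 and no gene in the top decile. Clec4n (Dectin-2) averaged 7.50 TPM, Cd302 6.37 TPM and Pla2r1 5.93 TPM, all below Mrc1 in every library. Mrc2, Cd209a and Cd209b were not detected in the gene tables, with at most 3 counts in a library. Mrc2 averaged 11.9 counts in the table made from the reads, above the limit. In the LAMP family, to which Cd68 belongs, Lamp2 averaged 137 ± 15.8 and Lamp1 58.9 ± 7.04 TPM (SD, n = 3), and Lamp3 and Lamp5 were not detected.

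Of 14 transcription factors known to act on these receptor genes 14 were detected, 7 of them in the top decile. The oxidative stress regulator Nfe2l2 averaged 262 ± 31.9, the interleukin-4 effector Stat6 84.0 ± 9.86 and the oxysterol receptor Nr1h3 69.6 ± 11.3 TPM (SD, n = 3). Among 20 cargo handling and signalling partners 18 were detected and 11 stood in the top decile, led by the kinase Lyn at 207 ± 21.5, the cholesterol exporter Abca1 at 134 ± 16.1 and the fatty acid carrier Fabp5 at 131 ± 23.5 TPM. Cav1 and the Scarb1 adaptor Pdzk1 were not detected in the gene tables. Of 15 other phagocytic receptors 11 were detected, with Fcgr2b at 422 ± 21.1, Mertk at 124 ± 5.96 and Siglec1 at 106 ± 0.10 TPM. Tyro3, Timd4 and Itgax were not detected in the gene tables, although Itgax averaged 12.5 counts in the table made from the reads.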

How the data were processed

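Chromatin-associated total RNA was sequenced in 3 libraries of 1 group, labelled biological replicates; where they share animals, the spread between them may be technical. The authors deposited gene and transcript tables of expected counts and TPM from an alignment to the transcriptome, and a transcript table of estimated counts and TPM made from the reads (mm10, GENCODE M21, per the labels and the submitters' processing notes). The names of the aligner and counter were not given in the sources used here. TPM depends on everything else in a library, and its protein-coding share was 27.4%, 30.7% and 31.9%.

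The reads table was summed to genes. Expected counts were rounded only for TMM scaling (edgeR 4.0.16) and for the chi-square test against Poisson noise (scipy 1.17.1, Benjamini-Hochberg over genes averaging 10 counts or more, threshold 0.05). The test was run on simulated Poisson counts, which hold counting noise only, apart from genes given a set change in replicate 1. That run checks the calculation, not how the test behaves on libraries that differ by more than counting noise. DESeq2 1.42.0 gave alternative size factors. log2 CPM used a prior count of 0.5, and percentiles rest on mean log2(TPM + 1). The deposited posterior SD of the gene-level count was at most 0.28 for these genes; for single transcripts it was larger, up to 94.9 counts for Stab1-201. No 2 libraries agreed within counting noise.

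The receptors and gene lists were chosen with earlier results of these data known. All 10 receptors were named, with each transcript that held at least 10% of a gene's mean TPM in the aligned reads, and of each companion list the 3 highest genes and up to 3 undetected ones in list order; Stab2, Stab1-208 and the further transcripts were named after their values were seen.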

Additional observations from a re-analysis of the deposited data

How the results depend on the processing

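The number of receptors detected was 8 to 10 and the number varying beyond counting noise 9 under every scaling, filter and table tried, with 32.4% to 60% of all tested genes varying at those settings. Leaving out replicate 1, 2 or 3 gave 9 detected each time and 7, 6 and 9 varying, beside 43.5%, 27.9% and 41.6% of all tested genes. The median percentile of 87.6 became 78.5 against only the protein-coding genes with at least 10 counts, a smaller background by construction, and stayed between 86.7 and 88.2 otherwise. Mean TPM moved by more than 1 SD for 10 of 10 receptors when rescaled over protein-coding genes and for 7 in the table made from the reads, where the leading transcript's share also moved for 7 and the non-coding share for 4. With 3 libraries, leaving out 1 cannot move a mean by 1 SD, so that setting is not read for these measures. Protein-coding genes held only 27.4% to 31.9% of TPM, so rescaling over them raises every gene in every library. The 10 of 10 follows from that change of scale and is not read either. The SD of log2 CPM moved by over 1.5 times for 4 of 10 in the table made from the reads. It did so for 2 with total counts, 0 with DESeq2 size factors, and 1 to 5 without a replicate. Leaving out the most distant of 3 libraries always lowers an SD, so the counts without a replicate are not read. No paired analysis was possible because all libraries belong to 1 group. Counting error is widest for Cd163 and Olr1, the genes with the fewest counts, and the cause of their difference between the tables was not tested.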
